A study of Rattus norvegicus with 17 samples.

Results

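The 10 genes described here encode enzymes that build fatty acids or put double bonds into them, and they were picked by symbol from an RNA-seq table of the rat meibomian gland (MG) that lists 17251 genes. Of the 10, 4 were enzymes of synthesis (Acly, Acaca, Fasn and Me1) and 6 were desaturases (Scd, Scd2, Scd4, Fads1, Fads2 and Fads3). All 10 were listed and all 10 passed the filter on low values, with a lowest value of 3.6 TPM in any rat, TPM being a count of transcripts scaled to their length and to a fixed total per library. MG were taken from 17 female rats aged 10 to 12 weeks on a Sprague-Dawley background. There were 4 rats in Control WT, 3 in UVB WT, 5 in Control P1.hMR and 5 in UVB P1.hMR. The transgenic P1.hMR line has the human mineralocorticoid receptor (MR) gene NR3C2 under its proximal P1 promoter, which is active in all tissues that express MR and is therefore not restricted to the MG. UVB rats received UVB on the upper eyelids for 5 days, with the skin shaved beforehand, and control rats did not receive UVB. Whether the eyelids of control rats were shaved is not given in the sources used here, so shaving and UVB cannot be told apart. The purpose of the comparisons was to find how UVB, the MR transgene and both together changed the MG, and here they are followed through 1 pathway.

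The MG is a holocrine gland of the eyelid whose meibocytes fill with lipid, break up and release meibum onto the tear film. Meibum is made of wax esters and cholesteryl esters, and its long and branched acyl chains start from fatty acid synthesis in the cytosol. Acly cuts citrate into acetyl-CoA, Acaca carboxylates it to malonyl-CoA, Fasn joins these units into palmitate, and Me1 supplies NADPH for the reductive steps. The stearoyl-CoA desaturases Scd, Scd2 and Scd4 place the first double bond in a saturated acyl-CoA. Fads2 and Fads1 act in turn on polyunsaturated fatty acids, and Fads3 acts on sphingoid bases. The share of unsaturated chains sets how fluid a lipid is.

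Scd4 fell in the UVB rats of both genotypes, and it stands beside Scd2 and Scd in the genome (RefSeq order, GRCr8), with Scd2 before it and Scd after it among the genes listed. The promoters of these 3 neighbours and of Fads2 are shown because they cover both called genes and the 2 neighbours of Scd4. RefSeq gives 250 bases before and 50 bases after the annotated start on the GRCr8 assembly, and 8 of the 10 genes had such an entry. The windows lie at chr1:253152269-253152568, plus strand for Scd4, chr1:253118127-253118426, plus strand for Scd2, chr1:253231682-253231981, minus strand for Scd and chr1:216171984-216172283, minus strand for Fads2. All are written 5′ to 3′ on the strand of the gene, and capitals mark the letters of motifs searched on both strands.
Scd4: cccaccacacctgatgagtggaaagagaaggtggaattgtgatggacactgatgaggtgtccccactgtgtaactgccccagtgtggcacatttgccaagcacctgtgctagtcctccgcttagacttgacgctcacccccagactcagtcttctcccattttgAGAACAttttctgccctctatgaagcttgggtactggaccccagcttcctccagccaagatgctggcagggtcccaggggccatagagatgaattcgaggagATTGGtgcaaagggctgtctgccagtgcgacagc
Scd2: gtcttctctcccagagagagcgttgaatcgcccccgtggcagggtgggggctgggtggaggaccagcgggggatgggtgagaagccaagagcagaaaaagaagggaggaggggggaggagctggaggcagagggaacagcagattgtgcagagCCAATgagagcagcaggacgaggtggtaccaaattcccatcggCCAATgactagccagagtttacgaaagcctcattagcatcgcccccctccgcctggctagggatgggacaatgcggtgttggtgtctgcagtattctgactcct
Scd: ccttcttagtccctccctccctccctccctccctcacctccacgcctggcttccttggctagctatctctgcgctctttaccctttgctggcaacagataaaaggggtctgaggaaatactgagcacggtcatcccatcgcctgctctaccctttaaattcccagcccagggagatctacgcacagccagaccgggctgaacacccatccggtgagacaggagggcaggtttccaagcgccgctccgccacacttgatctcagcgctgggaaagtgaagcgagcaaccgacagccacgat
Fads2: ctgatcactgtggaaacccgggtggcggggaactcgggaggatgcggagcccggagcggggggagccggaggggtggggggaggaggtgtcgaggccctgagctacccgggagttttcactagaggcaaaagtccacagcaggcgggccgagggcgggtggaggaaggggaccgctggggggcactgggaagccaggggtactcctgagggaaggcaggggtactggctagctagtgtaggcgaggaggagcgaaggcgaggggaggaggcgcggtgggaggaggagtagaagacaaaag
The 6 motifs searched were the NF-Y box CCAAT, the E-box CACGTG, the sterol response element core TCACNCCAC, the TATA box TATAAA, the steroid receptor hexamer AGAACA and the nuclear receptor hexamer AGGTCA. With the annotated start at 0, Scd4 held AGAACA at -86 on the plus strand and CCAAT at 16 on the minus strand, where it reads ATTGG. Scd2 held CCAAT at -97 and -54, both on the plus strand, and Scd and Fads2 held none of the 6. No 2 matches overlapped. AGAACA was in 1 of the 8 promoters, that of Scd4, and in 20.1% of 27457 RefSeq promoters of the same length. CCAAT was in 5 of the 8, namely those of Acly, Scd2, Scd4, Fads1 and Fads3, and in 37.7% of all. Of all promoters, 6.65% held CACGTG, 1.13% TCACNCCAC, 14.3% TATAAA and 15.7% AGGTCA, and none of the 8 held any of these 4. Base composition differed too, since G and C made up 54.7% of the Scd4 window, 59.0% of that of Scd2, 58.3% of that of Scd and 67.3% of that of Fads2, with a median of 52.3% over all promoters. A match is a run of letters and no binding was measured.

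The tissue carried markers of meibocytes at high levels. The wax ester synthase Awat2 lay between 6495 and 12062 TPM, and the cholesteryl ester enzyme Soat1 between 1177 and 1661 TPM in the 17 rats. Mogat2, also listed as a meibocyte marker, was at 0.53 TPM or less in every rat. The deposited values summed to 804378 to 840817 TPM per rat, and 12372 to 12737 genes reached 1 TPM. TPM keeps no read counts, so the depth behind each value cannot be read from the table. In bulk tissue, fewer cells of a type and less RNA per cell cannot be told apart.

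The 10 genes covered a wide range of levels. TPM is scaled to transcript length, so levels can be set beside each other across genes. Scd was the most abundant of all listed genes in 17 of 17 rats, at 23994 to 31198 TPM, or 2.40% to 3.12% of a library's whole TPM. In Control WT rats the mean levels ran from Scd (27692 ± 2517 TPM, SD, n = 4) to Scd4 (1564 ± 191), Me1 (670 ± 79.1), Scd2 (518 ± 71.0), Fasn (372 ± 54.3), Acly (300 ± 29.2), Acaca (125 ± 7.75), Fads2 (9.21 ± 1.04), Fads1 (8.0 ± 2.1) and Fads3 (5.08 ± 0.613). Neighbours whose ranges overlapped in this order were Scd2 and Fasn, Fasn and Acly, and Fads2 and Fads1. Control P1.hMR rats had the same order, with overlapping ranges for Me1 and Scd2 and for Fads2 and Fads1. The stearoyl-CoA desaturases were thus far above the Fads genes. Scd4 had 139 to 186 times the level of Fads2 in the 9 control rats.

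**Figure D1:**
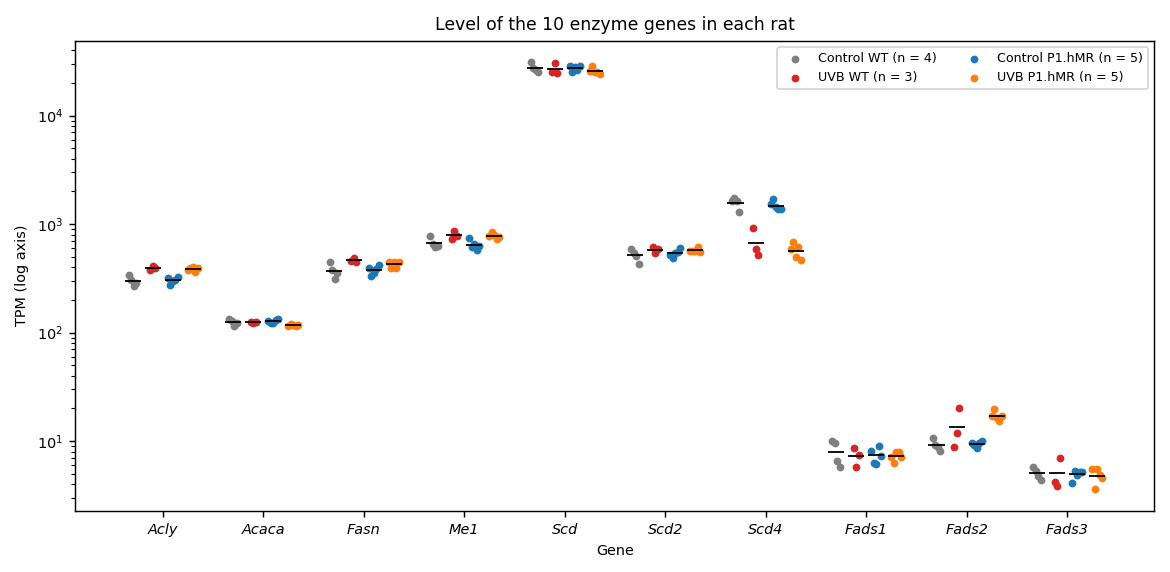
TPM of each of the 10 genes (log axis) in each of the 17 rats, coloured by group, with a line at the group mean. Scd4 sits at 1287 to 1726 TPM in the 9 control rats and at 468 to 912 TPM in the 8 UVB rats, while Scd stays at 23994 TPM or more in every rat.

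Under UVB the place of Scd4 in this order changed. In UVB WT rats Me1 (792 ± 63.4 TPM, n = 3) was second, and Scd4 (675 ± 208) overlapped it on one side and Scd2 (580 ± 33.6) on the other. In UVB P1.hMR rats Scd4 (571 ± 87.6 TPM, n = 5) overlapped Scd2 (572 ± 24.7) and lay below Me1 (779 ± 41.5) in each of the 5 rats. Scd4 was above Scd2 in 9 of 9 control rats and in 5 of 8 UVB rats.

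Scd4 had the largest change of the 10 genes in both UVB comparisons, and it fell in both genotypes. In Control WT rats it was at 1617.87, 1725.55, 1625.71 and 1287.15 TPM, and in UVB WT rats at 912.11, 588.75 and 523.59 TPM. The highest UVB WT rat was below the lowest control, so the groups did not overlap. The log2 fold change was -1.25 (SE 0.16, 95% CI -1.59 to -0.90, limma with Benjamini-Hochberg adjusted p = 0.000161), or 0.422 times the control level on the TPM + 1 scale. In Control P1.hMR rats Scd4 was at 1522.83, 1710.11, 1445.35, 1364.95 and 1381.57 TPM, and in UVB P1.hMR rats at 592.25, 678.32, 494.79, 619.76 and 468.27 TPM. Again no UVB rat reached any control rat. The log2 fold change was -1.39 (SE 0.14, 95% CI -1.68 to -1.10, limma adjusted p = 3.09e-06), or 0.382 times the control level. The difference between the fall in P1.hMR and that in WT was -0.14 on the log2 scale (95% CI -0.59 to 0.31, adjusted p = 0.926 for the interaction).

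**Figure D2:**
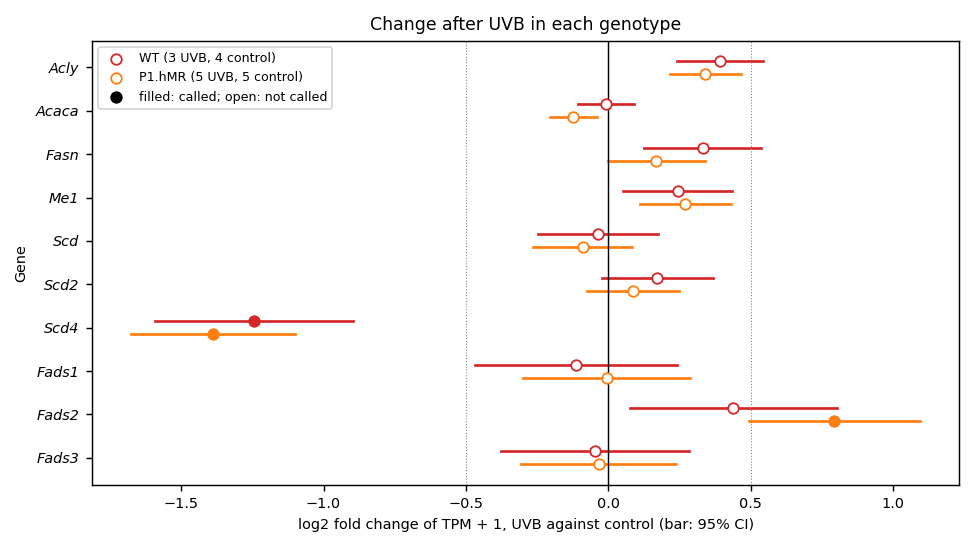
Log2 fold change of TPM + 1, UVB against control, for each gene (points) with its 95% confidence interval (bars), in WT (red) and P1.hMR (orange), with filled points for called genes and dotted lines at the threshold of 0.5. Scd4 lies at -1.25 and -1.39, and Fads2 is the other called gene, at 0.79 in P1.hMR.

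A gene was called when its adjusted p was under 0.05 and its absolute log2 fold change at least 0.5. In UVB WT against Control WT, 1 of the 10 genes was called lower (Scd4) and 0 were called higher, while 3.98% of the 13105 tested genes were called lower and 3.92% higher. In UVB P1.hMR against Control P1.hMR, 1 was called lower (Scd4) and 1 higher (Fads2), against 5.71% and 5.05% of tested genes. Without the fold threshold, 3 of the 10 passed in WT and 5 in P1.hMR, where 21.5% and 39.1% of tested genes passed. At an unadjusted p under 0.05 there were 5 of the 10 in each genotype, against 35.3% of tested genes in WT and 47.6% in P1.hMR. The groups did not overlap for 3 genes in WT and 4 in P1.hMR, against 26.6% and 27.2% of tested genes. The median log2 fold change of the 10 was 0.08 in WT and 0.04 in P1.hMR, beside 0.01 and -0.02 over all tested genes. These shares and medians of the 10 lie near the background, and the genes that were called are Scd4 and, in P1.hMR, Fads2.

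Scd, the main stearoyl-CoA desaturase of the gland, was not called in either genotype. Its values were 31197.86, 27642.79, 26575.87 and 25353.26 TPM in Control WT and 25282.81, 30815.26 and 24999.93 TPM in UVB WT rats. In P1.hMR they were 28778.05, 25423.92, 27854.55, 26248.18 and 28891.36 TPM without UVB and 25614.08, 28620.28, 25189.33, 25509.71 and 23993.86 TPM with UVB. The groups overlapped in both genotypes, with log2 fold changes of -0.04 (95% CI -0.25 to 0.17, limma adjusted p = 0.825) and -0.09 (-0.27 to 0.08, adjusted p = 0.41). A change of Scd by the size seen for Scd4 lies outside both intervals. Scd2, the form known from brain and from skin, was at 424.71 to 594.45 TPM in Control WT and 544.17 to 610.7 TPM in UVB WT, and at 483.26 to 608.83 and 555.69 to 615.97 TPM in P1.hMR. These ranges overlapped too, and the log2 fold changes were 0.17 (95% CI -0.02 to 0.37) and 0.09 (-0.07 to 0.25), with limma adjusted p of 0.194 and 0.384. Beyond these 2 neighbours, the nearest tested genes around Scd4 (Cwf19l1, Bloc1s2, Ndufb8 and Hif1an) had log2 fold changes of -0.14 to 0.25, and none of the 4 was called. Bloc1s2 was higher by 0.21 in WT (limma adjusted p = 0.0241) and 0.25 in P1.hMR (adjusted p = 0.00107), below the fold threshold.

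Scd made up most of the summed level of the 3 stearoyl-CoA desaturases. Scd held 92.1% to 96.5% of the summed TPM of Scd, Scd2 and Scd4 over the 17 rats. The share held by Scd4 was 5.26% ± 0.532 (n = 4) in Control WT and 2.42% ± 0.858 (n = 3) in UVB WT, and 5.06% ± 0.658 (n = 5) and 2.11% ± 0.216 (n = 5) in P1.hMR. The groups did not overlap in either genotype, at two-sided exact permutation p of 0.0571 in WT and 0.00794 in P1.hMR, each the smallest p its design allows. Over both genotypes, with rats permuted within genotype, the exact p was 0.000227, which is again the smallest possible. The summed level of the 3 genes was 29775 ± 2690 and 28288 ± 3189 TPM in Control WT and UVB WT rats, and 29464 ± 1509 and 26929 ± 1787 TPM in P1.hMR. The 3 genes are near copies of each other. RSEM, the tool named in the methods, divides reads that match several of them by a statistical estimate, while the labels name DRAGEN. Scd had 14.9 to 52.3 times the level of Scd4, and how far the level of Scd4 depends on that estimate was not tested.

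The ratio of Scd4 to each other desaturase was computed within each rat as a difference of log2(TPM + 1). This removes what scales both genes alike, but only in part for the low Fads genes, because of the added 1. After UVB the ratio to Scd differed by -1.21 (WT) and -1.30 (P1.hMR) in the mean. For Scd2 the differences were -1.42 and -1.47, and for Fads1 -1.13 and -1.38. For Fads2 they were -1.68 and -2.18, and for Fads3 -1.20 and -1.35. No UVB rat overlapped any control rat of its genotype in any of the 5 ratios. The two-sided exact permutation p, adjusted over the 5 ratios, was 0.0571 for each in WT, where 4 against 3 rats can go no lower, and 0.00794 for each in P1.hMR. Over both genotypes the changes ran from -1.25 (Scd) to -1.93 (Fads2), each at p = 0.000227, the smallest the permutations can give. Without UVB WT rat 3 the WT difference for Fads2 was -1.22, beside -1.25 for Scd2. The 5 ratios share Scd4 and are not independent of each other.

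**Figure D3:**
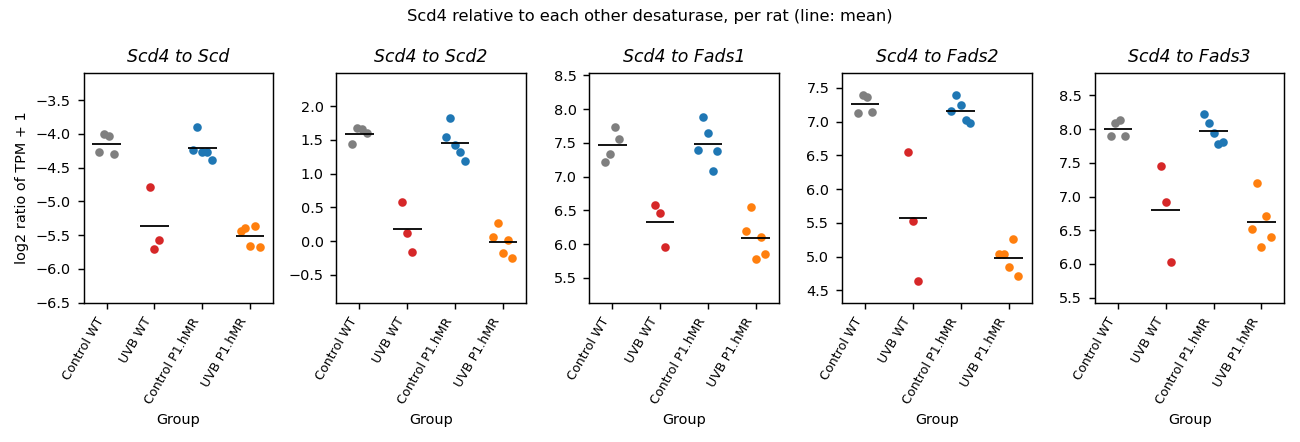
Log2 ratio of Scd4 to each of the other 5 desaturases (TPM + 1) in each rat, by group, with a line at the mean; each panel spans the same width of log2 units. Control and UVB rats are separate in every panel, and the mean change is -1.21 and -1.30 for Scd in WT and P1.hMR and -1.68 and -2.18 for Fads2.

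One UVB WT rat was high in Scd4. UVB WT rat 1, at 912.11 TPM, was nearer to the controls than the other two in its ratio to Scd, and at 6.55 was the highest of a range of 4.64 to 6.55 in the ratio to Fads2. Without this rat the WT log2 fold change of Scd4 was -1.48, and without UVB WT rat 3 it was -1.08, and Scd4 stayed called in both.

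Fads2, the first desaturase of polyunsaturated fatty acid synthesis and in human sebum also a desaturase of palmitate, was the only other called gene. In Control P1.hMR rats it was at 9.66, 9.19, 8.56, 9.53 and 9.93 TPM, and in UVB P1.hMR rats at 17.08, 19.76, 16.26, 15.15 and 16.85 TPM. Every UVB rat was above every control, and Fads2 rose by a log2 fold change of 0.79 (SE 0.14, 95% CI 0.49 to 1.09, limma adjusted p = 0.000415), or 1.73 times. In WT the values were 10.58, 9.28, 8.88 and 8.1 TPM without UVB and 8.77, 11.77 and 19.98 TPM with UVB. The WT groups overlapped, since UVB WT rat 1 lay among the controls and UVB WT rat 3 was above the highest UVB P1.hMR rat. The WT log2 fold change was 0.44 (SE 0.17, 95% CI 0.07 to 0.80, limma adjusted p = 0.0796) and was not called. It depended on single rats, being 0.69 (adjusted p = 0.00676) without UVB WT rat 1 and 0.14 (adjusted p = 0.457) without UVB WT rat 3. The interaction of genotype and UVB for Fads2 was 0.35 (95% CI -0.12 to 0.83, limma adjusted p = 0.793), so the rise was not shown to differ between genotypes.

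The other Fads genes were low and were not called. Fads1 was at 5.81 to 9.93 TPM in Control WT and 5.72 to 8.54 TPM in UVB WT, and at 6.2 to 9.07 and 6.23 to 8.01 TPM in P1.hMR. Its log2 fold changes were -0.11 (95% CI -0.47 to 0.24) and -0.01 (-0.30 to 0.29), with limma adjusted p of 0.668 and 0.978. Fads3 was at 4.39 to 5.79 and 3.85 to 7.03 TPM in WT, and at 4.09 to 5.28 and 3.6 to 5.5 TPM in P1.hMR. Its log2 fold changes were -0.05 (95% CI -0.38 to 0.28) and -0.03 (-0.31 to 0.24), with adjusted p of 0.868 and 0.855. These intervals leave room for changes of either sign. Fads1, Fads2 and Fads3 are paralogues, and reads that match several of them may have been divided among them.

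Among the enzymes of synthesis, Acly had the clearest difference, below the fold threshold. Acly was at 337.8, 307.7, 270.56 and 285.83 TPM in Control WT and at 375.7, 412.58 and 392.81 TPM in UVB WT rats. In P1.hMR it was at 322.11, 274.65, 297.02, 302.35 and 325.45 TPM without UVB and at 376.21, 393.95, 400.17, 360.06 and 395.43 TPM with UVB. The UVB rats were all above the controls of their genotype, with log2 fold changes of 0.39 (SE 0.07, limma adjusted p = 0.00157) and 0.34 (SE 0.06, adjusted p = 0.000329). Neither reached 0.5, and Acly was not called.

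Fasn, the synthase itself, was at 314.52 to 444.11 TPM in Control WT and 452.37 to 488.57 TPM in UVB WT, with no overlap and a log2 fold change of 0.33 (95% CI 0.13 to 0.54, limma adjusted p = 0.023). In P1.hMR it was at 335.74 to 420.13 and 390 to 446.52 TPM, with overlap and a log2 fold change of 0.17 (95% CI -0.0024 to 0.34, adjusted p = 0.11). The interaction for Fasn was -0.16 (95% CI -0.43 to 0.10, adjusted p = 0.843), so the 2 values were not shown to differ. Me1, the NADPH source, was at 614.34 to 785.5 and 735.56 to 860.52 TPM in WT and at 581.79 to 748.1 and 723.74 to 837.87 TPM in P1.hMR. It had log2 fold changes of 0.24 (adjusted p = 0.0652) in WT and 0.27 (adjusted p = 0.00904) in P1.hMR, and its groups overlapped in both. Acaca, which makes malonyl-CoA, was at 115.81 to 134.35 and 123.68 to 124.55 TPM in WT (log2 fold change -0.01, 95% CI -0.11 to 0.09). In P1.hMR it was at 121.55 to 132.88 TPM without and 113.88 to 119.73 TPM with UVB, a log2 fold change of -0.12 (95% CI -0.20 to -0.04, limma adjusted p = 0.0188) with no overlap. None of these 3 passed the fold threshold in either genotype.

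The MR transgene was compared with WT under each treatment. Without UVB, 0 of the 10 genes were called by limma, where 0.00763% of tested genes were called, and 0 had an unadjusted p under 0.05, beside 4.03% of tested genes. The log2 fold changes of the 10 lay between -0.09 and 0.07. Scd4 differed by -0.07 (95% CI -0.38 to 0.23). With UVB, 0 were called, where 0.0229% of tested genes were called. Fads2 was the 1 gene of the 10 with an unadjusted p under 0.05, beside 10.3% of tested genes. The difference of Fads2 between the genotypes under UVB was 0.38, higher in P1.hMR (95% CI 0.03 to 0.73, limma adjusted p = 0.438), and by 0.69 (adjusted p = 0.0112) without UVB WT rat 3 and 0.13 (adjusted p = 0.851) without UVB WT rat 1. Leaving out UVB WT rat 3 also moved the calls over all tested genes, from 3 to 51 for this comparison and from 0 to 8 for the interaction. Scd4 differed by -0.21 (95% CI -0.54 to 0.12, adjusted p = 0.684). For the interaction, 0 of the 10 were called by limma and 0% of all tested genes, and 0 of the 10 had an unadjusted p under 0.05, beside 6.92% of tested genes. The UVB and genotype comparisons share rats, so their values are not independent.

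The genes whose profile over the 17 rats was most like that of Scd4 were found by the root mean square difference of log2(TPM + 1) after centring each gene. Of 13104 other tested genes the nearest were Fbxl21 (0.14), an F-box protein gene, Fads2l1 (0.17), whose symbol marks it as like Fads2, Sec14l4 (0.18), of a family that binds lipids, Mest (0.20), a hydrolase-like gene, and Dbi (0.21), the acyl-CoA binding protein. None of the 9 other members was near it, the closest being Acaca at rank 4193 and the farthest Fads2 at rank 12719. These 5 genes were chosen for their likeness, so their changes are a description. Fbxl21 was at 62.9 to 96.35 TPM in Control WT, 28.76 to 47.13 in UVB WT, 65.96 to 78.74 in Control P1.hMR and 22.35 to 34.31 in UVB P1.hMR. Dbi was at 3053 to 4275.98, 1668.43 to 2674.77, 3368.38 to 4592.73 and 1487.05 to 1779.01 TPM in the same order. As with Scd4, UVB WT rat 1 was the highest UVB rat for both, and no UVB rat overlapped the controls of its genotype.

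**Figure D4:**
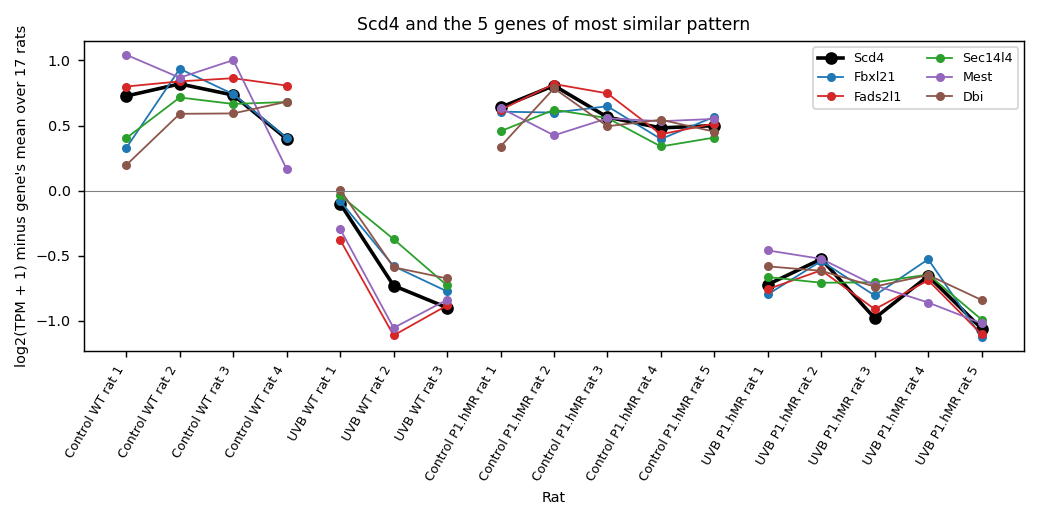
Log2(TPM + 1) minus each gene's mean over the 17 rats, for Scd4 (black) and the 5 genes of most similar profile, rat by rat, with lines joining rats of a group only to guide the eye. All 6 genes are lower in UVB rats, and UVB WT rat 1 is the UVB WT rat nearest to the controls for each.

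Fads2l1 had nearly the level of Scd4. It was at 1683.87, 1730.78, 1759.99 and 1692.08 TPM in Control WT and 743.77, 446.72 and 524.2 TPM in UVB WT rats. In P1.hMR it was at 1305.4 to 1706.49 TPM without UVB and 449.24 to 632.3 TPM with UVB. It fell by log2 fold changes of -1.62 (SE 0.14, limma adjusted p = 6.34e-06) in WT and -1.44 (SE 0.12, adjusted p = 5.4e-07) in P1.hMR, with no overlap in either. Fads2l1 was thus lower where Fads2 was not. Its level was 137 to 209 times that of Fads2 in the 9 control rats. Whether reads that match both genes affect the level of Fads2 was not tested.

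The genes around the 10 enzymes were read from lists of the pathway. Of 13 regulators of lipogenesis tested, among them Srebf1, Srebf2, Thrsp and the liver X receptors, 0 were called in either genotype, and their log2 fold changes lay between -0.30 and 0.16 in WT and between -0.28 and 0.17 in P1.hMR. Srebf1, the master activator of these enzymes, had 0.04 (95% CI -0.13 to 0.21) in WT and -0.16 (-0.30 to -0.02, limma adjusted p = 0.0597) in P1.hMR. Of 12 genes that supply citrate, acetyl-CoA and NADPH, 0 were called in either genotype, and 3 in WT and 6 in P1.hMR had an adjusted p under 0.05. Of 9 partners of acetyl-CoA carboxylase and genes of mitochondrial synthesis, 0 were called, and 0 and 2 had an adjusted p under 0.05. Among all tested genes, 21.5% in WT and 39.1% in P1.hMR had an adjusted p under 0.05. At an unadjusted p under 0.05 limma gave 3 and 7 of the 13 regulators, 6 and 7 of the 12 supply genes and 4 and 4 of the 9 partners in WT and P1.hMR, beside 35.3% and 47.6% of all tested genes.

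Desaturases draw their electrons from cytochrome b5 and its reductases, of which 5 were tested. Cyb5a was not listed, so Cyb5b was the only cytochrome b5 gene among them. Cyb5b had 0.38 in WT (limma adjusted p = 0.00732) and 0.31 in P1.hMR (adjusted p = 0.00383). Cyb5r1 had -0.24 (adjusted p = 0.0609) and -0.38 (adjusted p = 0.000743). Both stayed below the fold threshold. Cyb5r2 was at 6.88 to 9.57 TPM in Control WT and 1.45 to 4.37 TPM in UVB WT, and it fell by -1.25 (SE 0.24, limma adjusted p = 0.00206) in WT and -0.96 (SE 0.20, adjusted p = 0.00129) in P1.hMR on the log2 scale. Cyb5r3, far more abundant at 411.93 to 790.63 TPM, rose by 0.50 in WT (adjusted p = 0.0192) and had 0.38 in P1.hMR (adjusted p = 0.0181), below the fold threshold. Among 4 further desaturases, Fads2l1 was called lower and Degs2, a desaturase of ceramide, higher in both genotypes, by 0.75 (limma adjusted p = 0.00972) and 0.73 (adjusted p = 0.00149). The WT groups of Degs2 overlapped, at 36.24 to 69.52 TPM without and 66.76 to 95.81 TPM with UVB. Fads6 and Degs1 were not called. Of 12 genes of the elongation cycle, 2 were called higher in WT (Elovl3 and Elovl5) and 3 in P1.hMR (with Elovl7), and 0 were called lower. Among all tested genes, 3.92% in WT and 5.05% in P1.hMR were called higher, and 3.98% and 5.71% lower. For Elovl3 the WT groups overlapped, at 785.95 to 1129.41 TPM without and 1115.34 to 1532.27 TPM with UVB. Elovl5 rose by 0.72 and 0.78 and Elovl3 by 0.55 and 0.77 in WT and P1.hMR, whereas Elovl7 had 0.28 in WT and 0.85 in P1.hMR.

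**Figure D5:**
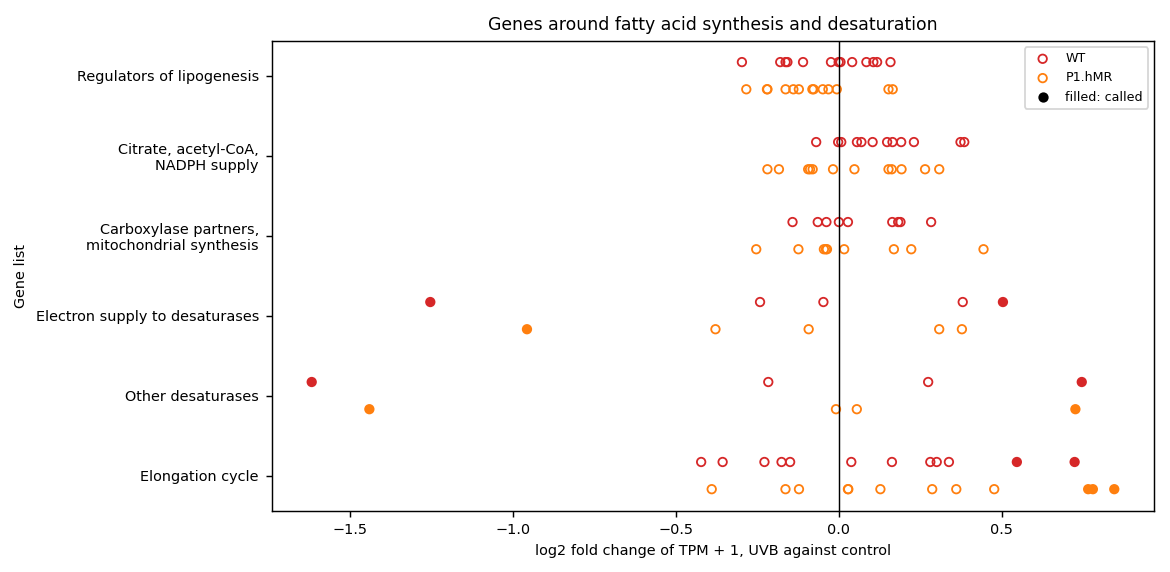
Log2 fold change of TPM + 1, UVB against control, of each tested gene in 6 lists around fatty acid synthesis and desaturation, in WT (red) and P1.hMR (orange), with filled points for called genes. The regulators, the supply genes and the carboxylase partners stay unfilled, and the far left points are Cyb5r2 and Fads2l1.

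Markers of cell types also differed between UVB and control rats. The summed TPM of 10 listed meibocyte markers was 20782 to 24018 in Control WT and 16558 to 17874 in UVB WT, and 19390 to 21857 and 15561 to 17934 in P1.hMR, with Awat2 called lower in both genotypes (-0.65 and -0.52) and Dgat2 in P1.hMR, of 9 tested. Much of the sum is Awat2 itself, at a mean of 11610 TPM in Control WT and 7380 TPM in UVB WT, and the median log2 fold change of the 9 was -0.12 in WT and -0.04 in P1.hMR. Cidea (-0.49 and -0.39) and Plin2 (-0.44 and -0.36) were lower in WT and P1.hMR with no overlap. Their limma adjusted p was 0.000599 or less, and they stayed below the fold threshold. Soat1 (0.11 and 0.22) and Pparg (0.22 and 0.12) had positive values in WT and P1.hMR and were not called. Pparg had a limma adjusted p of 0.0446 in WT. Of the 9, 4 in each genotype had an adjusted p under 0.05, beside 21.5% and 39.1% of all tested genes. All 6 hair follicle keratins were called lower in both genotypes, with sums of 551 to 914 and 243 to 701 TPM in WT and of 603 to 1024 and 341 to 571 TPM in P1.hMR. With the mean of the meibocyte markers as a covariate, Scd4 had -1.04 (limma adjusted p = 0.00485) in WT and -1.15 (adjusted p = 0.000849) in P1.hMR. With the hair follicle keratins it had -1.35 (adjusted p = 0.00529) and -1.48 (adjusted p = 0.00016). Both sets of markers themselves differed between UVB and control rats, so these fits cannot separate a change of cell types from UVB. The 3 UVB WT rats, at 912.11, 588.75 and 523.59 TPM of Scd4, had hair keratin sums of 280, 243 and 701 TPM. The 5 UVB P1.hMR rats, at 592.25, 678.32, 494.79, 619.76 and 468.27 TPM of Scd4, had sums of 547, 374, 571, 417 and 341 TPM.

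Of the other marker lists, skeletal muscle, leukocyte and lacrimal or harderian gland markers had 0 genes called by limma in either genotype, and at an unadjusted p under 0.05 there were 1 and 1 of 6, 0 and 0 of 5, and 1 and 1 of 3 in WT and P1.hMR, beside the 35.3% and 47.6% of all tested genes. Of 6 adipocyte markers tested, Cidec was called lower in WT and Retn higher in P1.hMR. Cidec had -0.64 in P1.hMR (limma adjusted p = 0.0532) and Retn 0.67 in WT (adjusted p = 0.35). Neither interaction was called (limma adjusted p = 0.88 for Cidec and 0.704 for Retn). The summed TPM was 87.3 to 158 and 88.3 to 115 in WT and 82.1 to 156 and 102 to 155 in P1.hMR. Cidec was low, at 0.43 to 4.95 TPM, and Lep was at 0.89 TPM or less in every rat. Of 7 duct and epidermis markers, Sprr1a was called higher and Ivl lower in both genotypes, and of 4 fibroblast markers Pdgfra and Dcn were higher in both and Col1a1 lower in P1.hMR. No covariate fit was made for these 2 lists, and the part of any cell type in the fall of Scd4 was not tested. With the adipocyte or the skeletal muscle markers as a covariate, the log2 fold change of Scd4 was -1.27 or -1.18 in WT and -1.38 or -1.35 in P1.hMR. Fads2 in P1.hMR had 0.88 (limma adjusted p = 0.00846) with the meibocyte covariate and 1.12 (adjusted p = 0.000365) with the hair follicle one. In WT Fads2 had 0.84 (adjusted p = 0.0258) with the hair follicle covariate and 0.51 (adjusted p = 0.135) with the meibocyte one.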

How the data were processed

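RNA of the MG was sequenced with 1 library per rat. The authors checked the reads, aligned them to rn7, quantified genes with RSEM and deposited TPM, per the methods, and the labels also name Trimmomatic, DRAGEN and Picard. No counts were used here. The study names its controls as littermates of the transgenic rats, and which rats shared a litter is not given in the sources used here. Log2(TPM + 1) was analysed for genes that reached 1 TPM in 3 or more rats (13105 genes), in R 4.3.3 with limma 3.58.1, as 4 group means with a variance trend and Benjamini-Hochberg adjustment over all tested genes. The fit was tested on simulated data. Ratios and shares were compared with two-sided exact permutation tests in Python 3.11.15 with scipy 1.17.1.

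The 10 genes and all lists were chosen with earlier results of these data known. Besides the 10, the genes named were the called genes of each pathway list (at most 6) and the 5 most like Scd4. Srebf1, Awat2, Soat1 and other markers were named after their values were seen. Alternatives were a pseudocount of 0.1, other filters, scalings and fold thresholds, fits without trend, with sample weights, a replicate block or marker covariates, fits of 2 groups, and each rat left out. Promoters were matched by symbol, and coordinates are those of RefSeq GRCr8, not of rn7.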

Additional observations from a re-analysis of the deposited data

Results flagged for a closer look

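Of 30 gene and group sets with 4 or 5 rats checked for a rat far from its group, 1 stood apart, where chance gives about 1 in 20. This was Scd2 in UVB P1.hMR rat 4, at 616 TPM, whose gap to the next rat was 0.816 of the range of the group. Scd2 was not called in any comparison.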

How the results depend on the processing

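Leaving out each rat in turn, 1 to 2 of the 10 genes were called after UVB in WT (2, with Fads2, without UVB WT rat 1), 2 in P1.hMR, 0 to 1 for P1.hMR against WT under UVB (1, Fads2, without UVB WT rat 3), and 0 for P1.hMR against WT without UVB and for the interaction. Scd4 was called lower after UVB in both genotypes under every setting tried. In WT 2 genes were called with sample weights or the hair follicle covariate (with Fads2) and with the meibocyte covariate (with Acly), and 3 without a fold threshold. In P1.hMR 5 were called without a fold threshold, 1 where the threshold was raised to 1, and 3 with the meibocyte covariate, where Me1 had 0.55 (limma adjusted p = 0.000155). The replicate numbers were not taken to pair the rats, since 0 of 8 same-numbered UVB and control pairs had a correlation of deviations over 0.1 (-0.19 to 0.054). Of same-numbered rats of the 2 genotypes, 3 of 4 pairs without UVB (0.042 to 0.24) and 0 of 3 with UVB (-0.13 to 0.058) were over 0.1. With the replicate block, 1 gene was called in WT and 2 in P1.hMR, as without it, and the log2 fold change of Scd4 was -1.28 and -1.39. The ratios and the share of Scd4 kept their direction and their side of the threshold with a pseudocount of 0.1 (ratios), quantile normalization and each rat left out, but in WT the exact test cannot go below 0.05.

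Uncalled values near 0 changed sign, and the cause was not tested. After UVB in WT, Acaca was 0.0071 with sample weights and 0.049 with the meibocyte covariate, and -0.045 to 0.026 with each rat left out. Scd in WT was 0.19 with the meibocyte covariate and -0.14 to 0.022 with each rat left out. Fads1 in WT was 0.013 with the meibocyte and 0.044 with the hair follicle covariate, and -0.24 to 0.025 with each rat left out. Fads3 in WT was 0.026 with sample weights, 0.0089 with the adipocyte and 0.44 with the hair follicle covariate, and -0.27 to 0.092 with each rat left out. In P1.hMR, Scd was 0.16 with the meibocyte covariate. Fads1 there was 0.026 with quantile normalization, 0.012 with median-of-ratios scaling, 0.035 with sample weights, 0.14, 0.018 and 0.12 with the meibocyte, skeletal muscle and hair follicle covariates, and -0.058 to 0.063 with each rat left out. Fads3 was 0.0065 with sample weights, 0.36 with the hair follicle covariate and -0.088 to 0.047 with each rat left out. For P1.hMR against WT without UVB, Fads2 was -0.015 with the hair follicle covariate and -0.027 to 0.089 with each rat left out. Scd4 ranged from -0.37 to 0.026 for P1.hMR against WT under UVB and from -0.30 to 0.097 for the interaction, and it was above 0 without UVB WT rat 1. Scd is the top gene in each of the 17 rats, so quantile normalization gives it no difference.

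With 3 UVB rats the WT comparison is the least precise, and the counting error of the low Fads genes was not computed from TPM. The p-values set each difference of group means against the spread between these rats.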
